A study of Mus musculus with 6 samples.

Results

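Germline genes are genes whose products are made in sperm and egg precursors and are held off in most other tissues. Here 10 of them were followed in mouse tibia, chosen by gene symbol from the annotation of the 55401 identifiers in the count tables. They were Dazl, Ddx4, Mael, Sycp1, Sycp3, Stra8, Mybl1, Tex101, Tdrd1 and Dppa3, and all 10 had a row in each of the 6 libraries. The question was whether loss of the chromatin remodeler ATRX in bone-forming cells opens germline genes in general.

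Poly(A) RNA was sequenced from whole tibias of male mice, with 3 Atrx-cKO libraries (Osterix-Cre; Atrxf/y) and 3 control libraries (Atrxf/y, without the Cre transgene). The mice carried the floxed Atrx allele in both groups, were 8 weeks old and had doxycycline until 3 weeks of age to hold back Cre. Osterix-Cre is a Tet-off transgene driven by Sp7 (Osterix) sequences and is active in preosteoblasts, so Atrx was deleted in a part of the cells of the bone only. Because the controls carry no Cre, the effects of the transgene and of Atrx loss cannot be told apart in these libraries. Each library held 50977777 to 70571655 counts on genes. Atrx itself was at 168 ± 12.1 CPM (counts scaled to the same total of counts on genes in each library; mean ± SD, n = 3) in Atrx-cKO and 165 ± 15.8 in control tibias. In edgeR its log2 fold change was -0.05 (SE 0.08, adjusted p = 0.992). A count over the whole gene does not single out the deleted part, and the other cells of the tibia keep the gene, so it gives no check of the genotype.

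In the germline, these genes work in a few connected programs. Dazl and Ddx4 encode an RNA-binding protein and an RNA helicase of germ cells. Mael and Tdrd1 act with small piRNAs to silence transposons. Stra8 starts meiosis in response to retinoic acid, Sycp1 and Sycp3 build the synaptonemal complex that joins paired chromosomes, and Mybl1 (A-MYB) is the transcription factor of meiotic spermatocytes. Tex101 encodes a surface glycoprotein of male germ cells, and Dppa3 (Stella) encodes a factor of primordial germ cells and oocytes. In somatic cells many such genes have CpG-rich promoters that are shut by DNA methylation or by PRC1.6, a repressor complex that holds the E-box binding pair MGA and MAX and the factor E2F6.

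Promoters of 8 of the 10 genes were found in the RefSeq promoter table (build GRCm38.p6; 250 bases before to 50 bases after each start). Mybl1 and Dppa3 were not matched. The table was used without a chromosome that holds none of the 10 genes, which left 27025 genes, called all genes for the promoters below. The letters CACGTG (an E-box, the same on both strands) stood in the windows of 5 of the 8, against 8.09% of these 27025 genes. Those of Mael, Sycp1 and Tdrd1 are printed with the E-box in capitals, to show where the motif lies. The Dazl promoter, which had none of the letters searched, is printed beside them because Dazl had the highest log2 fold change of the genes tested. Each line runs 5′ to 3′ on the strand of the gene and stops before the more upstream of the RefSeq and GENCODE starts. It therefore ends 3 bases short of the RefSeq start in Mael and 16 bases short of it in Dazl, and right before it in Sycp1 and Tdrd1.
Mael (chr1:166238748-166238994, minus strand): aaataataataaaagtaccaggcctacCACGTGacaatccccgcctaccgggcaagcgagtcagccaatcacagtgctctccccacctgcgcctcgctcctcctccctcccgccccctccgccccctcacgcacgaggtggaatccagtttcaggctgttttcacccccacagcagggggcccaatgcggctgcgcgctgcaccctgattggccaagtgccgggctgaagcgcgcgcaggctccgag
Sycp1 (chr3:102936101-102936350, minus strand): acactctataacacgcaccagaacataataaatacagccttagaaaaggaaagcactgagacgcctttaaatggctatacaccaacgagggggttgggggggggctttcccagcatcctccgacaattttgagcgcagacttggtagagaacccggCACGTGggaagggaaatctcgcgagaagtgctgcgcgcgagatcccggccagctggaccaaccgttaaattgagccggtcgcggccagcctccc
Tdrd1 (chr19:56825959-56826208, plus strand): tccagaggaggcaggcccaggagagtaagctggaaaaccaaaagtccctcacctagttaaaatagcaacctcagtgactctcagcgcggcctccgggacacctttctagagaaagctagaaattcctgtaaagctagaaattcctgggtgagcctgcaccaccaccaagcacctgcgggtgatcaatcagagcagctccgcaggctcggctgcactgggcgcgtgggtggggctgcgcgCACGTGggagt
Dazl (chr17:50293637-50293870, minus strand): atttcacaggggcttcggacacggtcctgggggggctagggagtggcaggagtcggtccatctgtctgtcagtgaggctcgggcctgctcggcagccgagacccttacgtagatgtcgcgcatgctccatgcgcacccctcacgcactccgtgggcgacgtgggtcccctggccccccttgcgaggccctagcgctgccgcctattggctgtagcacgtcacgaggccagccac

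Counted from the RefSeq start, with -1 as the base before it, the E-box began at -223 in Mael, at -94 in Sycp1 and at -11 in Tdrd1. Ddx4 had an E-box at -29, and Sycp3 had a pair, at -64 and -43. The letters GCGGGAA, a site of the E2F type, or their reverse complement TTCCCGC stood in Ddx4 and Sycp3, 2 of 8 genes, against 5.29% of all genes. TATAAA or its reverse complement TTTATA stood only in an alternative start of Tdrd1, 1 of 8 genes, against 15.7% of all genes. None of these matches in the germline promoters overlapped another. A match is a stretch of letters and does not show that a factor binds there.

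The promoters of the germline genes were also rich in CpG. The CpG ratio (observed over expected from the base composition) had a median of 0.788 over the 8 genes, against 0.415 over all genes. It ran from 0.430 in Stra8 to 0.978 in Ddx4, and all 8 genes lay above the median of all genes. Dazl was at 0.795, with 68.7% G and C. The E-box was found in Sycp1, Sycp3 and Ddx4, which had counts in every library, and also in Mael and Tdrd1, which had almost none. The windows without it belonged to Dazl, Tex101 and Stra8, and the E2F letters were found only in Ddx4 and Sycp3.

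**Figure D1:**
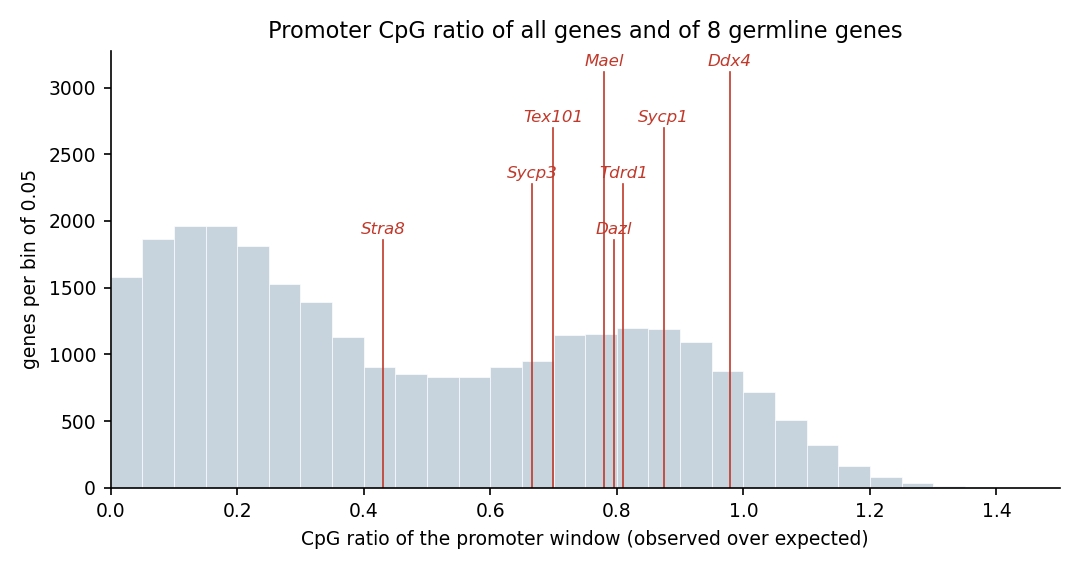
Histogram of the promoter CpG ratio (horizontal axis, observed over expected, no unit) over the 27025 genes used from the RefSeq table. The vertical axis gives the number of genes per bin of 0.05. Red lines mark 8 germline genes, each at its window of highest ratio. Stra8 is lowest at 0.430 and Ddx4 highest at 0.978, and the height of a red line has no meaning.

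The 10 genes were not equally low in bone. Sycp3, Mybl1, Sycp1 and Ddx4 were above the detection floor of 3 counts in every library, controls included. Counts were thus assigned to these 4 genes in control bone too, although for Sycp3 they may include reads of a gene on the opposite strand, Chpt1. Dazl was above the floor in 5 of 6 libraries. Tex101 passed it in 2 control libraries and Tdrd1 in 1 Atrx-cKO library, while Mael, Dppa3 and Stra8 were at or under it in all 6. The floor was worth 0.0425 to 0.0588 CPM, depending on the depth of the library, and covers counting error only. In bulk tibia, a difference in the number of cells that make a transcript and a difference in RNA per cell cannot be told apart.

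Per kilobase of exon, the order of the mean levels over the 6 libraries was Sycp3 at 3.32 CPM per kb, Mybl1 at 0.804, Sycp1 at 0.507, Ddx4 at 0.292 and Dazl at 0.0968. Tex101 followed at 0.0257 CPM per kb, Dppa3 at 0.0165, Tdrd1 at 0.00278 and Mael at 0.00177, with Stra8 at 0. Sycp3 was the only gene whose range over the libraries (2.77 to 4.002 CPM per kb) did not overlap that of the next, but its counts cannot be separated with certainty from those of Chpt1, so its place in the order is uncertain. From Mybl1 down, each gene's range overlapped that of the gene after it. Among the 20636 genes that passed the filter on low counts, 48.8% had a lower level per kb than Sycp3, 25.4% lower than Mybl1, and 4.17% lower than Dazl.

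**Figure D2:**
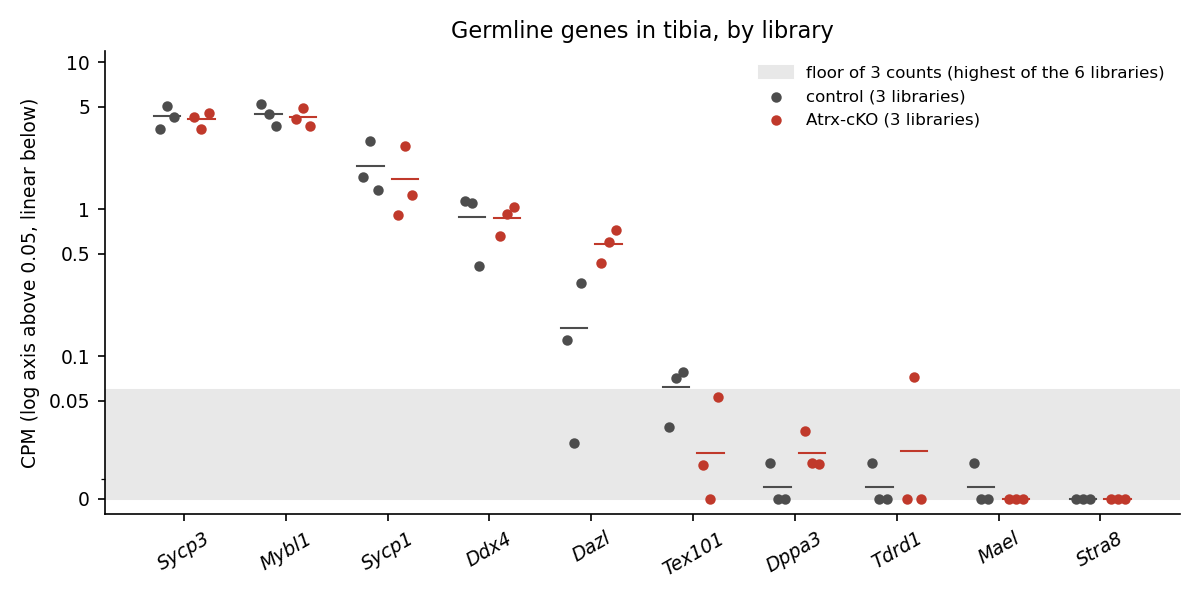
CPM of the 10 germline genes in each library (vertical axis, logarithmic above 0.05 and linear below), ordered by level per kilobase; grey points are the 3 control libraries, red points the 3 Atrx-cKO libraries, horizontal lines the group means, and the grey band the highest floor of 3 counts, 0.0588 CPM. Dazl is the only gene whose red points all lie above its grey points.

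None of the 10 germline genes was called between Atrx-cKO and control tibias. A gene was called at an adjusted p under 0.05 over all genes tested and an absolute log2 fold change of at least 1. By edgeR, 5 of the 10 passed the filter and 0 were called in either direction, against 0.0145% of the 20636 genes tested called higher (3 genes) and 0% called lower. DESeq2 called 0 of the 10 as well, against 0.0385% higher and 0.05% lower of the 25992 genes given an adjusted p. It gave none to Mael, Tdrd1, Dppa3 or Stra8, so these could not be called. At an unadjusted p under 0.05 in edgeR, 1 of the 5 tested was higher (Dazl) and 0 were lower, against 1.59% of all tested genes higher and 2.05% lower. DESeq2 likewise gave 1 gene, Dazl, higher at an unadjusted p under 0.05 and 0 lower, against 1.55% and 2.36% of its 25992 genes.

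None of the germline genes that were silent in controls came on in every Atrx-cKO library. Mael, Stra8, Dppa3 and Tdrd1 were at or under the floor in every control, and 0 of these 4 passed it in every Atrx-cKO library, against 0.223% of the 28236 genes in the tables that started from the same state (63 genes). In the other direction, Mael, Stra8, Dppa3 and Tex101 were at or under the floor in every Atrx-cKO library and 0 of them were above it in every control, against 0.218% of 28420 genes. With 4 genes and a background this low, a count of 0 carries little weight on its own. The summed level of the 10 genes was 10.4, 12.7 and 11.3 CPM in the Atrx-cKO libraries and 11.8, 13.7 and 10.1 CPM in the controls. The groups overlapped, with means of 11.5 ± 1.15 and 11.8 ± 1.78 CPM (SD, n = 3). The difference of the means was -0.359 CPM, and it was -0.978 CPM by TMM effective library size and -1.23 to 0.546 CPM with 1 library left out, so its sign was not stable. Without Mybl1, the gene of highest CPM, the sums were 7.25 ± 0.808 and 7.40 ± 1.56 CPM.

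Dazl (chr17:50279395-50293636, minus strand), the RNA-binding protein that licenses germ cells for gametogenesis, had the highest log2 fold change of the 5 genes tested. It had 25, 33 and 41 counts in the Atrx-cKO libraries and 7, 2 and 16 in the controls. As CPM these were 0.431, 0.598 and 0.720 against 0.129, 0.0283 and 0.314. Every Atrx-cKO library was above every control, and the lowest Atrx-cKO library was 1.37 times the highest control. This made Dazl the only one of the 10 genes without overlap in the upward direction, against 5.15% of the 36318 genes with a count, and 0 of the 10 were without overlap downward, against 2.5%. By TMM effective library size these counts were again 1 and 0, against 3.49% and 3.56%.

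The means were 0.583 ± 0.145 CPM in Atrx-cKO and 0.157 ± 0.145 in control tibias (SD, n = 3), a ratio of 3.71. The log2 fold change was 1.85 (SE 0.70), with an adjusted p of 0.992 over all genes in edgeR. Across the alternatives in which Dazl could be tested in edgeR or DESeq2, the adjusted p ran from 0.576 to 0.99997. The exact two-sided permutation test over the 6 libraries gave p = 0.1, the smallest that 3 libraries against 3 allow. By unadjusted p Dazl ranked 470 among all tested genes, and 187 genes that were higher in Atrx-cKO had a p as low. The difference thus missed the threshold. Its size moved most with the third control, which held the highest control value. Without that library the log2 fold change was 2.88 (edgeR adjusted p = 0.9999).

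The counts behind Dazl were few. The counting intervals of the lowest Atrx-cKO library (0.279 to 0.636 CPM) and the highest control (0.179 to 0.510 CPM; exact Poisson, 95%) overlapped. No other annotated gene lay within 20 kb of Dazl.

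**Figure D3:**
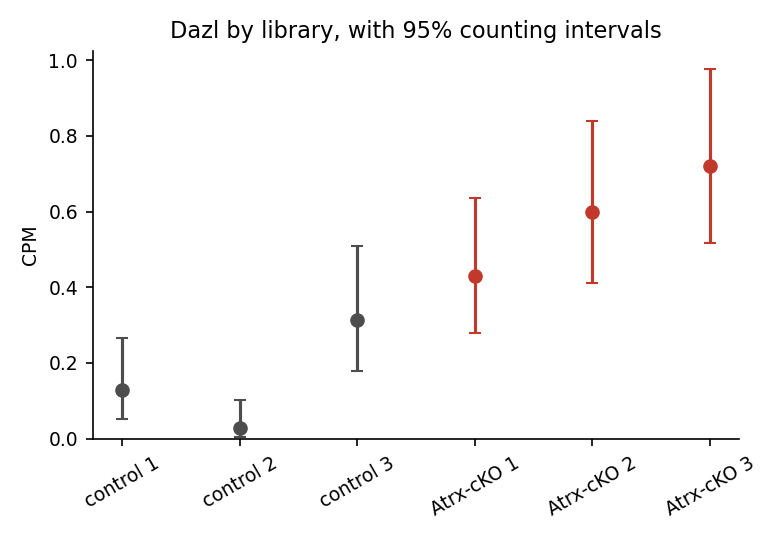
Dazl in each library as CPM (vertical axis, linear from 0), with grey points for controls, red points for Atrx-cKO, and bars for the exact Poisson 95% interval of the count. The 3 red points lie between 0.431 and 0.720 CPM and the 3 grey points between 0.0283 and 0.314 CPM, with the bars of the first Atrx-cKO and the third control libraries overlapping.

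Ddx4 (chr13:112598333-112652475, minus strand), the germ cell RNA helicase also known as Vasa, gave no such separation. It had 38, 51 and 59 counts in Atrx-cKO and 62, 78 and 21 in control tibias. The control libraries spanned the whole Atrx-cKO range. The means were 0.872 ± 0.196 and 0.886 ± 0.411 CPM (SD, n = 3), with a log2 fold change of -0.09 (SE 0.40, edgeR adjusted p = 0.996).

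The synaptonemal complex genes were detected in every library. Sycp1 (chr3:102818499-102936100, minus strand), which makes the transverse filaments between paired chromosomes, had 53, 149 and 71 counts in Atrx-cKO and 91, 207 and 69 in controls. The second library was the highest in each group, and the groups overlapped. The means were 1.62 ± 0.9503 and 1.99 ± 0.835 CPM (SD, n = 3), with a log2 fold change of -0.39 (SE 0.46, edgeR adjusted p = 0.992). The pseudogene Sycp1-ps1, which may share reads with Sycp1, had 0 to 3 counts in each library.

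Sycp3 (chr10:88459569-88473236, plus strand), a component of the chromosome axis, had 248, 193 and 259 counts in Atrx-cKO and 193, 357 and 217 in controls. The groups overlapped, with means of 4.11 ± 0.544 and 4.29 ± 0.756 CPM and a log2 fold change of -0.15 (SE 0.22, edgeR adjusted p = 0.992). However, 52.2% of the exonic bases of Sycp3 are shared with exons of Chpt1, a gene of phospholipid synthesis on the opposite strand. The strand setting of the counting is not given in the sources used here, so the reads of the 2 genes cannot be told apart with certainty. Chpt1 was at 2314 to 4249 counts per library, and the Sycp3 count was 10.2, 6.47 and 8.22% of the Chpt1 count in Atrx-cKO and 8.34, 8.40 and 7.87% in controls. Neither gene separated the groups, and the level of Sycp3 in bone remains uncertain for this reason.

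**Figure D4:**
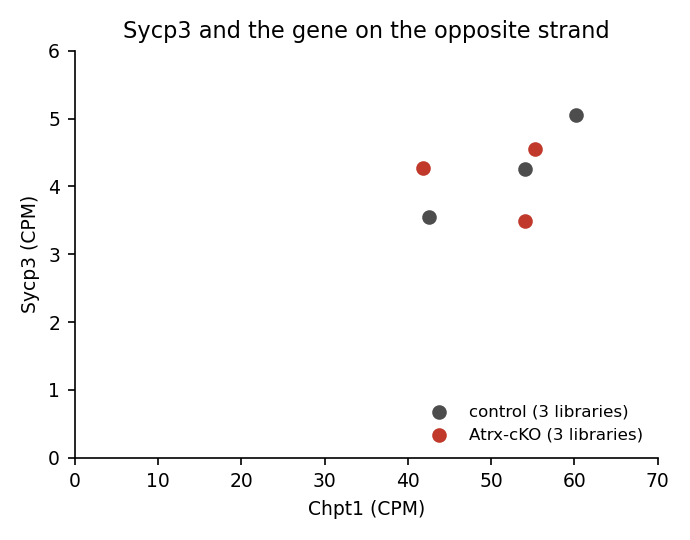
Sycp3 (vertical axis, CPM) against Chpt1, the gene that overlaps it on the opposite strand (horizontal axis, CPM), with 1 point per library, grey for controls and red for Atrx-cKO. The 6 libraries hold 41.8 to 60.2 CPM of Chpt1 and 3.498 to 5.06 CPM of Sycp3, and the groups are mixed on both axes.

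Mybl1 (chr1:9667415-9700209, minus strand), which is also known in B cells, had 238, 270 and 212 counts in Atrx-cKO and 283, 315 and 188 in controls. The groups overlapped, with means of 4.24 ± 0.598 and 4.45 ± 0.757 CPM (SD, n = 3) and a log2 fold change of -0.14 (SE 0.18, edgeR adjusted p = 0.992). B cell markers summed to 257 to 380 CPM in Atrx-cKO and 186 to 370 CPM in controls, and their part in the level of Mybl1 was not tested. The genes whose pattern over the 6 libraries, each centred on its own mean, was nearest to that of Mybl1 were Xylt1, the small nucleolar RNA Snora78 and the gene model Gm43573. Their root mean square differences from it were 0.0215, 0.0364 and 0.0454 on the centred log2(TMM-scaled CPM + 0.5) scale. Their mean levels differed, at 29.2, 0.152 and 1.16 CPM, and at 0.152 CPM the added 0.5 flattens the pattern of Snora78.

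The other 5 genes stayed near the floor. Stra8 (chr6:34920163-34939344), the gene of meiotic entry, had 0 counts in all 6 libraries, which allows a level of up to 0.0425 to 0.0588 CPM. Mael (chr1:166201201-166238747) had a single count, in the first control. Both genes were at or under the floor in either group. Tdrd1 (chr19:56826209-56870012), the tudor-domain scaffold of the piRNA machinery, had 4 counts in the second Atrx-cKO library, 1 in the first control and 0 in the rest. Dppa3 (chr6:122626410-122630272) had 2, 1 and 1 counts in Atrx-cKO and 1, 0 and 0 in controls, and Tex101 (chr7:24668007-24676675) had 1, 0 and 3 against 2, 5 and 4. In exact two-sided permutation tests over the 6 libraries, p was 0.3 for Dppa3, 0.2 for Tex101 and 1 for Tdrd1 and Mael. A change within these few counts was not detectable.

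A wider set of 97 germline genes in 5 lists was likewise without a call. Of these, 83 had a count in some library, 40 were above the floor in every library and 14 were at 0 throughout. In edgeR 43 were tested and 0 were called, against the 0.0145% and 0% of all tested genes given above. At an unadjusted p under 0.05, 0 were higher and 1 was lower in edgeR, while DESeq2 gave 0 higher and 2 lower with 0 called. Over all genes these shares were 1.59% and 2.05% in edgeR and 1.55% and 2.36% in DESeq2. With 1 library left out the edgeR counts ran from 0 to 3 higher and from 0 to 2 lower. The median log2 fold change over the 43 tested was 0.08, against 0.005 over all tested genes, and 29 of the 43 were positive. Of the 30 genes at or under the floor in every control, 0 passed it in every Atrx-cKO library, against the background of 0.223% given above. At so low a background, a count of 0 among 30 genes carries little weight.

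In the piRNA pathway 9 of 18 genes were tested, with a median log2 fold change of 0.18. Tdrd7, a tudor-domain protein also used outside the germline, was the most abundant per kilobase, at 34.4 ± 3.40 CPM in Atrx-cKO and 32.6 ± 4.64 in controls. Rnf17, a germ cell tudor-domain protein, had 32, 18 and 22 counts in Atrx-cKO and 49, 42 and 35 in controls. All its Atrx-cKO libraries were under all its controls, and the log2 fold change was -0.84 (SE 0.34, edgeR adjusted p = 0.992). Tdrkh, which anchors PIWI proteins at mitochondria, was at 3.89 ± 0.509 against 2.97 ± 0.146 CPM, without overlap by total counts but with overlap by TMM effective library size (log2 fold change 0.31, edgeR adjusted p = 0.992), and 36.7% of its exonic bases are shared with Oaz3 on the opposite strand.

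In the list of meiotic chromosome genes 15 of 29 were tested, with a median log2 fold change of 0.12. Spo11, whose product makes the DNA breaks that start recombination, had 40, 38 and 41 counts in Atrx-cKO and 33, 12 and 10 in controls. The groups did not overlap, and the log2 fold change was 1.07 (SE 0.48, edgeR adjusted p = 0.992). Hormad2, a chromosome axis protein, had values in the other direction, with 10, 7 and 25 counts against 36, 46 and 14 (log2 fold change -1.17, SE 0.57, edgeR adjusted p = 0.992). The most abundant of the list per kilobase were Rec114, at 4.73 ± 0.371 against 4.33 ± 1.51 CPM, and Syce2, at 7.04 ± 1.44 against 5.74 ± 1.70 CPM. Rec114 shares 26.9% of its exonic bases with Nptn on the opposite strand.

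Among germ cell RNA-binding proteins and transcription factors 6 of 20 were tested, with a median log2 fold change of 0.12. Dazap1, which is broadly expressed, was at 99.4 ± 8.27 CPM in Atrx-cKO and 92.3 ± 9.01 in controls, Zbtb16 at 9.02 ± 3.28 against 6.64 ± 1.21, and the testis bromodomain gene Brdt at 3.45 ± 0.954 against 2.69 ± 0.170. Lhx8, an oocyte homeobox gene, was the only gene of the wider set that was above the floor in every control (8, 4 and 8 counts) and at or under it in every Atrx-cKO library (0, 1 and 1). For this direction, 33 genes of the set were at or under the floor in every Atrx-cKO library, against the background of 0.218% given above. Lhx8 was named after its values were seen and was too low for the edgeR fit.

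Of the spermatid and sperm genes 9 of 16 were tested, with a median log2 fold change of 0.04. Odf2, which also serves centrosomes of other cells, was at 86.5 ± 2.82 against 80.5 ± 11.4 CPM, the sperm glycolytic enzyme Gapdhs at 4.75 ± 0.402 against 5.14 ± 0.967, and the testis lactate dehydrogenase Ldhc at 0.5005 ± 0.178 against 0.332 ± 0.232. Prm2, Pgk2 and Odf1 were at 0 in every library. Of the oocyte and early embryo genes 4 of 14 were tested, with a median of 0.23, among them Gdf9 at 1.08 ± 0.432 against 1.20 ± 0.188 CPM, Bmp15 at 0.355 ± 0.174 against 0.231 ± 0.0318 and Khdc3 at 1.41 ± 0.457 against 1.01 ± 0.378. All the values in each pair are Atrx-cKO first and control second, and their groups overlapped.

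Counted over the 5 lists, 5 genes did not overlap upward (Msh5, Nobox, Padi6, Spo11 and Tdrkh) and 5 did not overlap downward (Henmt1, Lhx8, Rnf17, Tex11 and Tfap2c). This was 6.02% of the 83 genes with a count in each direction, against backgrounds of 5.15% upward and 2.5% downward. The background depended on the scaling: by TMM effective library size it was 3.49% upward and 3.56% downward, and the lists then held 4 genes upward (without Tdrkh) and the same 5 downward. Nobox and Padi6, both oocyte genes, rested on few counts: Nobox had 4, 2 and 1 in Atrx-cKO and 0, 1 and 0 in controls, and Padi6 had 2, 3 and 5 against 0, 0 and 1. Genes in these counts that no rule selected were named after their values were seen.

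**Figure D5:**
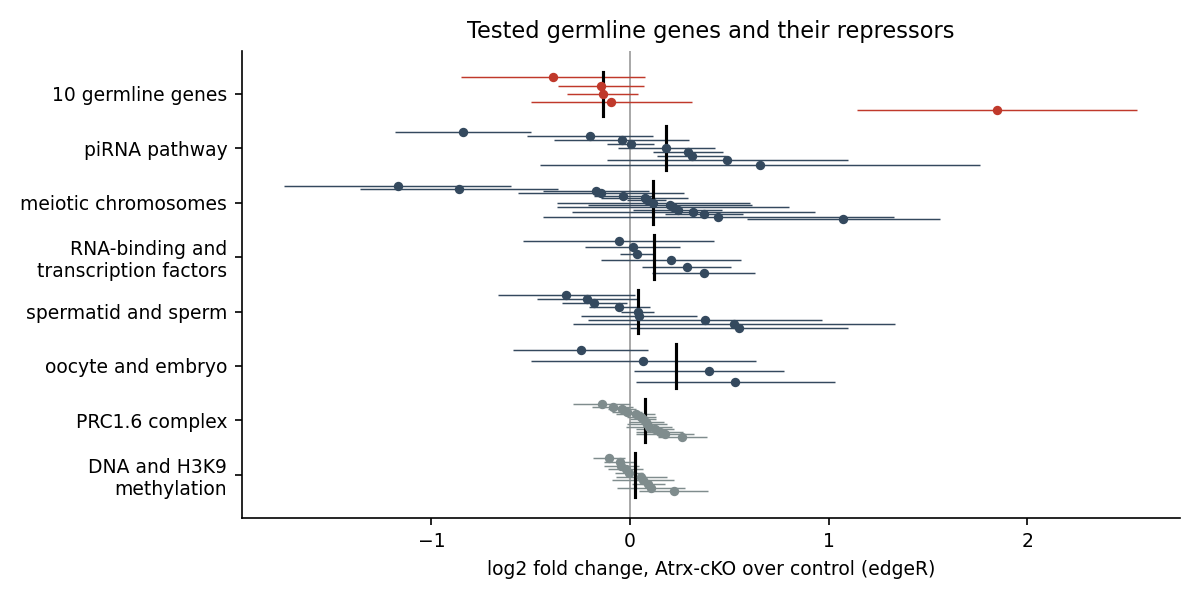
Log2 fold change of Atrx-cKO over control (horizontal axis, edgeR) for each tested gene of the 10 germline genes (red), of 5 wider germline lists (dark blue) and of 2 lists of their repressors (grey), with bars of 1 SE and a black line at each list's median; the vertical position inside a list only orders the genes. The medians lie between -0.14 and 0.23, and Dazl, at 1.85, is the point farthest to the right.

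The genes that keep germline promoters shut were well expressed and none was called. All 14 PRC1.6 genes and all 10 genes of DNA methylation and H3K9 methylation were above the floor in every library and tested, with 0 called by edgeR or DESeq2 and 0 at an unadjusted p under 0.05 in either tool. Over all genes, edgeR called 0.0145% higher and 0% lower, and DESeq2 0.0385% and 0.05%. At an unadjusted p under 0.05 the shares were 1.59% and 2.05% in edgeR and 1.55% and 2.36% in DESeq2. At shares this low, counts of 0 among these genes carry little weight. Their median log2 fold changes were 0.07 and 0.02. Max was at 105 ± 4.84 CPM in Atrx-cKO and 103 ± 9.50 in control tibias, Tfdp1 at 142 ± 22.0 against 121 ± 24.2, and Yaf2 at 27.6 ± 1.54 against 24.2 ± 3.77. Pcgf6, the subunit that defines the complex, had 736, 656 and 651 counts against 560, 583 and 510 without overlap, with a log2 fold change of 0.26 (SE 0.12, edgeR adjusted p = 0.992). It was 1 of the 14 PRC1.6 genes without overlap upward, and 0 were without overlap downward. The shares of all genes with a count were 5.15% and 2.5%, or 3.49% and 3.56% by TMM effective library size. Of the methylation machinery, Ehmt2 was at 143 ± 11.6 against 146 ± 9.06 CPM, Trim28 at 184 ± 13.4 against 180 ± 15.9, and Hells at 29.7 ± 6.97 against 24.4 ± 3.70.

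One spermatocyte gene outside these lists was called. Tcfl5, a transcription factor of meiotic spermatocytes that was taken up because earlier results of these data showed it, had 374, 422 and 471 counts in Atrx-cKO and 18, 23 and 37 in controls (7.45 ± 0.927 against 0.461 ± 0.229 CPM; log2 fold change 3.94, SE 0.35, edgeR adjusted p = 0.0387). The log2 fold change stayed between 3.72 and 4.43 in all alternatives. The call was lost, with adjusted p between 0.0607 and 0.280 in edgeR, with a filter of 10 counts in every library, with the replicate number as a block, or when any one library other than the third control was left out. It was kept with both other normalizations (edgeR adjusted p = 0.0364 and 0.0346), without a filter (6.58e-06), without the third control (0.00212) and with DESeq2 (1.82e-34). It shares 7.39% of its exonic bases with Col9a3 on the opposite strand.

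The summed markers of each list made for cell types of the tibia overlapped between the groups. No list was made for osteoclasts, cartilage, vessel or fat cells, so nothing is said of them. Osteoblast and osteocyte markers, the cells in which Osterix-Cre acts, summed to 116666 to 123514 CPM in Atrx-cKO and 115237 to 175825 CPM in controls. Most of this sum came from Col1a1 and Col1a2, with means of 59325 and 54067 CPM in Atrx-cKO and 73549 and 67955 in controls. The sum therefore says little of the other markers of the list. Of these 11 markers 1 had a positive log2 fold change and the median was -0.21. None was called. At an unadjusted p under 0.05, 1 was lower in edgeR and 3 in DESeq2, against 2.05% and 2.36% of all genes. The marker lower in edgeR was Ibsp, a bone matrix protein, at 1297 ± 34.3 CPM in Atrx-cKO and 1737 ± 322 in controls, without overlap. Skeletal muscle markers ranged more widely, from 631 to 2154 CPM and from 721 to 9907 CPM, with the highest sum in the third control, the library that also held the highest control value of Dazl. The summed ranges of erythroid, neutrophil, T and natural killer cell and proliferation markers also overlapped between the groups. Among the T and natural killer cell markers, Gzma was higher without overlap, at 4.27 ± 1.23 against 2.72 ± 0.640 CPM, and was at an unadjusted p under 0.05 in edgeR. Cd3d was lower without overlap, at 3.89 ± 2.49 against 8.03 ± 1.22 CPM, with 263, 63 and 341 counts in the Atrx-cKO libraries. The other CD3 chains went the other way, with log2 fold changes of 0.39 for Cd3e and 0.27 for Cd3g. Of the 8 markers in this list, 6 had a positive log2 fold change. No marker of the muscle, B cell, erythroid, neutrophil or proliferation lists was at an unadjusted p under 0.05 in either tool. Markers of gonadal somatic cells summed to 19.0 to 23.4 CPM in Atrx-cKO and 19.7 to 22.3 CPM in controls, with 0 of 5 tested genes called and 0 at an unadjusted p under 0.05 in edgeR or DESeq2. Of the 10 genes in this list Hsd3b1 and Foxl2 were at 0 in every library and Fshr had 1 count in all. The 5 tested genes, Sox9, Amh, Inha, Star and Insl3, had counts in every library. Amh had 39, 18 and 29 counts in Atrx-cKO and 30, 34 and 22 in controls. The list was thus neither absent as a whole nor present as a whole. The part of cell composition in the values of the germline genes was not tested.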

How the data were processed

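Poly(A) RNA of 3 Atrx-cKO and 3 control tibias was sequenced as paired ends. The authors deposited 1 table per library of raw counts per Ensembl gene, on GRCm38 per the labels. The aligner, counter and strand setting are not given in the sources used here. The labels call the libraries strand specific but also name a kit that does not mark strand, so whether the counts are by strand is not known. The processing notes name DESeq2. Entries that name no gene were left out of the totals; counts without a feature made up 51.6 to 52.4% of all counts, for a reason that was not tested. Symbols, exonic lengths and overlaps came from GENCODE M21, which matched 55141 of 55401 identifiers.

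The 10 genes and all lists were chosen with earlier results of these data known. CPM was computed from the total of counts on genes. edgeR 4.0.16 (TMM, filterByExpr, quasi-likelihood test, genotype alone) was fitted in R 4.3.3 to all 6 libraries with Benjamini-Hochberg adjustment over 20636 genes, and DESeq2 1.42.0 was the alternative tool. The edgeR fit was also run on counts simulated for 20636 genes of this comparison, with 200 of them changed. It recovered 51 of the 2-fold and 79 of the 4-fold changed genes, with 15 false calls. On the same simulated counts DESeq2 recovered 70 and 87, with 46 false calls, so its calls are less certain. Recovery was counted at an adjusted p under 0.05 alone, without the fold threshold of a call. The changed genes were drawn at random from all tested genes, so the recovery of genes with low counts is not given. Permutation tests and counting intervals used scipy 1.17.1. Named genes were the 10 genes, Atrx, Tcfl5, overlapping genes, the 3 genes most like the gene of highest CPM, and up to 4 per list, 2 by level per kilobase and 2 by lowest p. The labels do not say that each library is 1 mouse, so p-values measure the spread between these libraries. Libraries of a group differed by more than sampling noise. Alternatives were other normalizations, filters, floors, TMM effective library sizes, DESeq2, a replicate block and leaving out each library.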

Additional observations from a re-analysis of the deposited data

How the results depend on the processing

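The 10 germline genes had 0 calls, and 0 opened, under every alternative run, and the 97 wider germline genes had 0 calls. In the main edgeR fit only 5 of the 10 and 43 of the 97 were tested. Over all genes of that fit 0.0145% were called higher and 0% lower, and 0.223% of genes at the floor in every control opened. At backgrounds this low, counts of 0 in every setting carry little weight. The count of all genes called higher, 3, became 1 with at least 10 counts in every library, 10 with DESeq2 and 0 to 5 when 1 library was left out. The count called lower, 0, became 1 with no filter, 13 with DESeq2 and 0 to 1 with 1 library left out. Genes with an adjusted p under 0.05 at any fold, 3, became 10 with no filter, 1 with at least 10 counts, 37 with DESeq2 and 0 to 5 with 1 library left out. Of the 10 genes, 1 to 2 did not overlap upward and 0 to 1 downward with 1 library left out. Dppa3 joined Dazl upward without the first control, and Sycp1, Tex101 or Ddx4 appeared downward. With fewer libraries such separation is easier to reach, and the share over all genes was not computed for these settings. These counts therefore have no background to be read against. Log2 fold changes with 1 library left out were 1.32 to 2.88 for Dazl, -0.42 to 0.14 for Ddx4, -0.97 to 0.047 for Sycp1, -0.31 to 0.014 for Sycp3 and -0.26 to -0.05 for Mybl1. Thus Ddx4 changed sign without the first Atrx-cKO, first control or second control library, and Sycp1 and Sycp3 without the second control. The difference in summed CPM, -0.359, was -0.978 by TMM effective library size and -1.23 to 0.546 with 1 library left out. The count of wider genes without overlap upward, 5, was 4 by that scaling, which was chosen for them after seeing the data. The cause of these shifts was not tested. Dazl could not be tested with at least 10 counts in every library.

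Over the tested genes, the deviations of same-numbered libraries from their group means had correlations of -0.025, 0.062 and -0.071. With 3 libraries in each group, these values cannot decide whether the replicate numbers pair the libraries. With the replicate number as a block, 0 genes were called higher, 0 had an adjusted p under 0.05, and Dazl had a log2 fold change of 2.08 (edgeR adjusted p = 0.974). Stra8, Mael, Tdrd1, Dppa3 and Tex101 each held at most 15 counts over all libraries, too few to show a change at this depth. Why they were so low was not tested.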

Other observations

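Some genes named for the gonads were well detected in tibia. Sox9, which chondrocytes also use, was at 8.69 ± 0.833 CPM in Atrx-cKO and 8.86 ± 2.10 in control libraries (SD, n = 3). The inhibin subunit Inha was at 4.71 ± 0.747 against 5.14 ± 0.971 CPM, the steroid transport gene Star at 4.74 ± 1.01 against 4.19 ± 0.402 and the hormone gene Insl3 at 2.26 ± 0.207 against 1.74 ± 0.453. The protamine gene Prm1, of sperm chromatin, had 17, 18 and 20 counts in Atrx-cKO and 24, 1 and 11 in control libraries, while Prm2 had none. Prm1 was named after its values were seen. The groups overlapped for each of these genes.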
